A study of Canis lupus familiaris with 62 samples.

Results

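Radiotherapy without surgery (RT) was compared with no treatment in dogs with meningioma. The comparison used 3 libraries whose treatment label is RT and 27 whose treatment label is none, so 30 of the 62 libraries of the series, with 1 library per tumour. The 3 RT dogs were neutered males of 3 breed labels (Mixed, Australian Shepherd and Cane Corso Mastiff), with survival labels of 182, 468 and 505. The 27 untreated dogs were 13 males, 3 of them intact, and 14 neutered females of 17 breed labels, with survival labels from 0 to 4 (0 in 16 dogs). The labels give no unit for survival, no age, no radiation dose or schedule, and do not say whether the tissue preceded the treatment. Survival differed completely between the groups, so radiotherapy and longer survival cannot be told apart. All 30 sample names consist of N with a number between 11 and 18 and a serial number, and no label says what these mean. The RT dogs carry the numbers 11, 15 and 18. They are called RT 1, RT 2 and RT 3 here, in accession order. The specimens were biopsies or post-mortem tissue, and which of these each dog gave is not labelled. The tissue had been fixed in formalin and embedded in paraffin, and total RNA was sequenced.

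Meningiomas are tumours of the membranes that cover the brain and are common brain tumours of dogs. Radiotherapy breaks the DNA of tumour cells. Cells answer such breaks by halting division, by repair or by death, and irradiated tissue is known for inflammation and scarring. The deposited counts carry gene identifiers with no names, and 0 of 30951 matched the table of names at hand. The genes of these responses, and the markers of meningeal, brain, immune or muscle cells, could therefore not be looked up, and the labelled tissue could not be checked against its markers. The 4 genes named below are given by identifier with positions on CanFam3.1, and no role is given for them. In such bulk tissue, fewer cells of a type and less RNA per cell cannot be told apart.

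The RT libraries were not alike in depth or makeup. Total counts were 5623111 in RT 1, 2323100 in RT 2 and 5092229 in RT 3, against a lowest of 1967061, a median of 3850875 and a highest of 8354260 in untreated tumours. Genes with at least 1 count numbered 14665, 16588 and 18185 in RT 1, RT 2 and RT 3, against 13085 to 18767 in untreated tumours. RT 1 thus had the fewest genes of the 3 at the largest total, and 2 of the 27 untreated libraries had fewer. Genes of the mitochondrial chromosome took 22.1% of the counts in RT 1 (95% exact binomial interval 22.06 to 22.13), 8.06% in RT 2 (8.03 to 8.10) and 18.4% in RT 3 (18.39 to 18.46), against 6.29% to 46.5% in untreated libraries. These intervals cover counting error only. Over 7 library measures (these 3, the share of even values among low counts, the TMM scaling factor and 2 principal components) 0 differed between RT and untreated libraries by a 2-sided exact permutation test of means (0 at an unadjusted p under 0.05, smallest adjusted p 0.808). With 4060 arrangements of 3 among 30 libraries the smallest p that test allows is 0.000493. The first component (27.7% of the variance) stood at 7.25 in RT 1, -68.3 in RT 2 and -73.9 in RT 3, against a lowest of -127.8 and a highest of 60.01 in untreated tumours. The second (6.87%) stood at 60.6, -0.54 and -27.4 in the RT dogs, against -30.6 to 67.1 in untreated tumours. RT 1 thus lay apart from RT 2 and RT 3 on both, within the untreated range.

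In RT tumours 78 genes were higher and 2 were lower than in untreated tumours, which is 0.425% and 0.0109% of the 18370 genes tested (edgeR quasi-likelihood test, Benjamini-Hochberg adjusted p under 0.05, with sex and neuter status as covariates). All 78 were over 2-fold higher in the fit, with a median log2 fold change of 4.96 and a range from 1.60 to 10.14, while the median over all genes tested was -0.06. Without adjustment 1442 genes, or 7.85%, had a p under 0.05. The 78 genes lay on 35 chromosomes or scaffolds, with at most 6 on 1 chromosome. They had a median of 10 exon blocks and a median exonic length of 2776 bases, against 8 blocks and 1904 bases over all genes tested, and 1 had a single exon. Many were low in level, with 30 of the 78 averaging a log2 CPM below 0, against 2428 of the 18370 genes tested. DESeq2 called 30 genes higher and 26 lower, of which 26 and 2 were edgeR calls. It gave no p for 15 of the 80 edgeR calls, against 79 of all 18370 genes tested. Limma voom with quality weights called 18 higher and 4 lower, of which 2 and 1 were edgeR calls.

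Most of the higher genes were high in RT 1 alone. RT 1 was the highest of the 3 RT dogs in 71 of the 78 genes, RT 2 in 7 and RT 3 in 0, whereas over all genes tested they were highest in 35.2%, 29.5% and 35.4%. RT 1 lay above every untreated dog in 71 of the 78 genes, RT 2 in 10 and RT 3 in 1, against 6.4%, 3.6% and 1.35% of all genes tested. The 78 were chosen as higher in these same 3 dogs, so shares above those of all genes follow in part from the choice. The 7 genes led by RT 2 had 8 to 40 counts there and at most 16 in any untreated dog, while the 71 led by RT 1 had a median of 676 counts in RT 1. In 65 genes RT 1 was the only RT dog above every untreated dog, in 5 RT 2 was, and in 0 of the 78 were all 3 above. The median distance of the 78 genes from the untreated median was 5.18 in RT 1, 0.36 in RT 2 and 0.63 in RT 3, on the log2 CPM scale. RT 2 lay at or below the untreated median in 33 of these genes and RT 3 in 28. For most of the 78 genes the fold change of the group thus averages 1 dog with a large difference and 2 dogs with smaller ones.

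**Figure D1:**
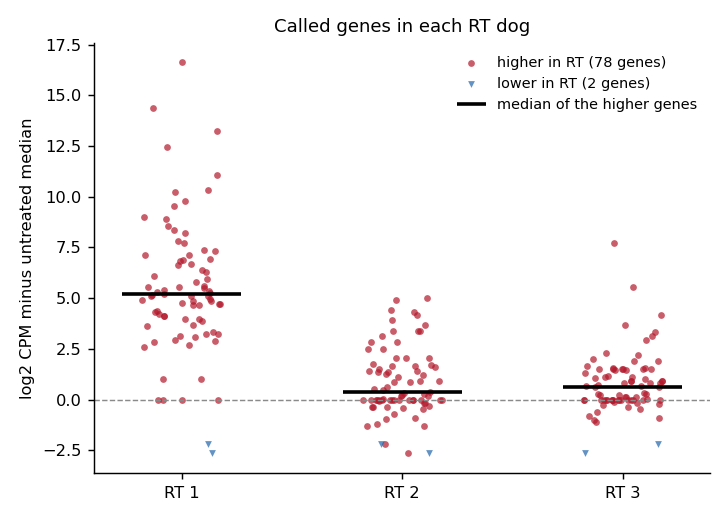
Log2 CPM minus the untreated median (vertical axis) of the 80 called genes in each RT dog. Points stand for the 78 higher genes, triangles for the 2 lower genes and bars for the median of the higher genes, which is 5.18 in RT 1, 0.36 in RT 2 and 0.63 in RT 3.

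The calls followed RT 1 when dogs were left out. Without RT 1 edgeR called 8 genes higher and 0 lower among 19278 tested (0.0415% and 0%, with 774 at a p under 0.05 before adjustment, and edgeR was the tool run on that subset). Without RT 2 it called 116 higher and 7 lower (0.6% and 0.0362%), and without RT 3 it called 156 higher and 40 lower (0.806% and 0.207%). Of the 8 genes called without RT 1, 4 were among the 78 and 4 had not passed the filter on low counts with all 3 dogs. These 8 genes had 8 to 44 counts in RT 2, 1 of them had 6 counts in RT 3 and the other 7 had none there, and 2 to 5 untreated dogs had any. They were thus low in count and seen mainly in RT 2. Of the 78 genes, 77 were tested without RT 1, where 51 had a positive and 26 a negative log2 fold change, with a median of 0.71 against -0.07 over all genes tested. The 78 were chosen as higher by a fit that contains RT 2 and RT 3. Their lean to positive values without RT 1 is thus no separate evidence. Set alone against the untreated dogs, RT 1 gave 287 higher and 221 lower genes (1.36% and 1.05% of 21134), RT 2 gave 42 and 6 (0.199% and 0.0284% of 21136) and RT 3 gave 0 and 0 (of 21048, with 354 at an unadjusted p under 0.05). In these fits the lone dog is assumed to vary like the dogs of the other groups.

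**Figure D2:**
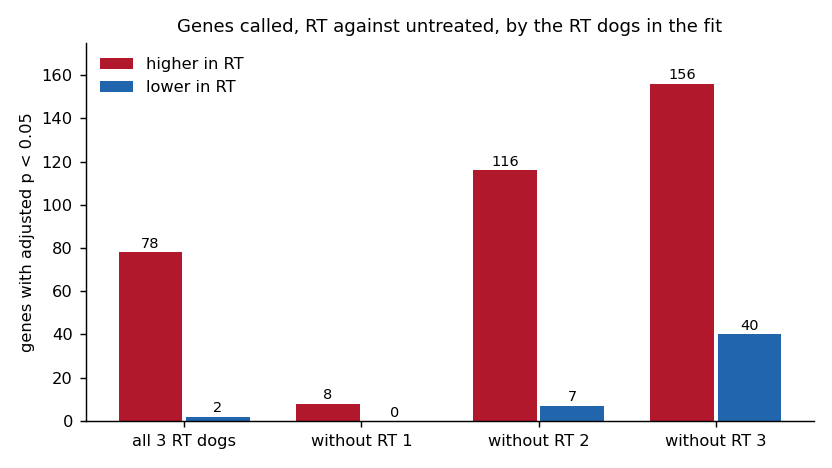
Number of genes with an edgeR adjusted p under 0.05 (vertical axis) with all 3 RT dogs and with each left out, higher in RT in red and lower in RT in blue. The higher genes numbered 78 with all 3 dogs, 8 without RT 1, 116 without RT 2 and 156 without RT 3.

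Across genes, the departure of RT 1 from the untreated mean ran apart from that of the other RT dogs. Over 11963 genes whose log2 CPM averaged 2 or more, the departures of RT 2 and RT 3 correlated with r 0.33, those of RT 1 and RT 2 with r -0.07, and those of RT 1 and RT 3 with r -0.12. Genes are not independent replicates, and each pair shares the untreated mean. No such correlation between untreated dogs is given here, so whether r 0.33 is more than untreated pairs show was not tested. The SD of the departures was 1.35 in RT 1, 0.95 in RT 2 and 0.85 in RT 3. Each untreated dog set against the mean of the other 26 had an SD from 0.65 to 1.58, with a median of 0.92, and 2 of the 27 had a larger SD than RT 1. Among the 30 libraries RT 1 was the highest by at least 2 log2 units in 76 genes, RT 2 in 9 and RT 3 in 0. The same count was 188 in untreated replicate 12, 44 in the next untreated library, and 3 in the median untreated library. An untreated library thus stood apart in more genes than RT 1 did.

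Counts of a few genes filled much of the RT 1 library. A gene of 18 exon blocks on chromosome 18, from 55110175 to 55163084, had 604619 counts in RT 1, 16 in RT 2 and 1583 in RT 3, against 0, 22 and 1736 counts as the lowest, median and highest of untreated tumours. It took 10.8% of the RT 1 library (95% exact binomial interval 10.73 to 10.78). It overlaps 1 other gene of the file, and counting ignored strand. A gene of 18 exon blocks on chromosome 6, from 40646351 to 40718462, had 360665 counts in RT 1, 0 in RT 2 and 874 in RT 3, against 0, 2 and 984 in untreated tumours. It took 6.41% of the RT 1 library (6.39 to 6.43), and both genes together took 17.2% (17.14 to 17.20). These 2 genes were singled out after their values were seen. With all 3 dogs they stood at log2 fold changes of 9.98 (SE 1.43, edgeR adjusted p 5.13e-06) and 10.14 (SE 1.80, edgeR adjusted p 0.000553). With RT 1 left out their log2 fold changes were 1.81 and 1.83, and the calls were lost.

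The 2 genes were part of a set of 8 that had at least 1000 counts in RT 1 and at least 100 times the count of every other library of the series. The 8 genes lay on 5 chromosomes, and 7 of them were among the 78 higher genes, while the eighth had not passed the filter. Their counts ran from 1117 to 604619 in RT 1, from 0 to 16 in RT 2 and from 3 to 1583 in RT 3. In RT 3 each of the 8 genes had between 0.176% and 0.269% of its RT 1 count, so the RT 3 library held them in nearly the proportions of RT 1 at a far lower level. In RT 2 they had between 0% and 0.0455% of the RT 1 count. Whether reads of RT 1 were assigned to other libraries was not tested. It would bear on the values of these genes in RT 3, in untreated libraries and in those of other groups. Whether RT 1 held tissue other than tumour was not tested either, since markers could not be looked up.

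**Figure D3:**
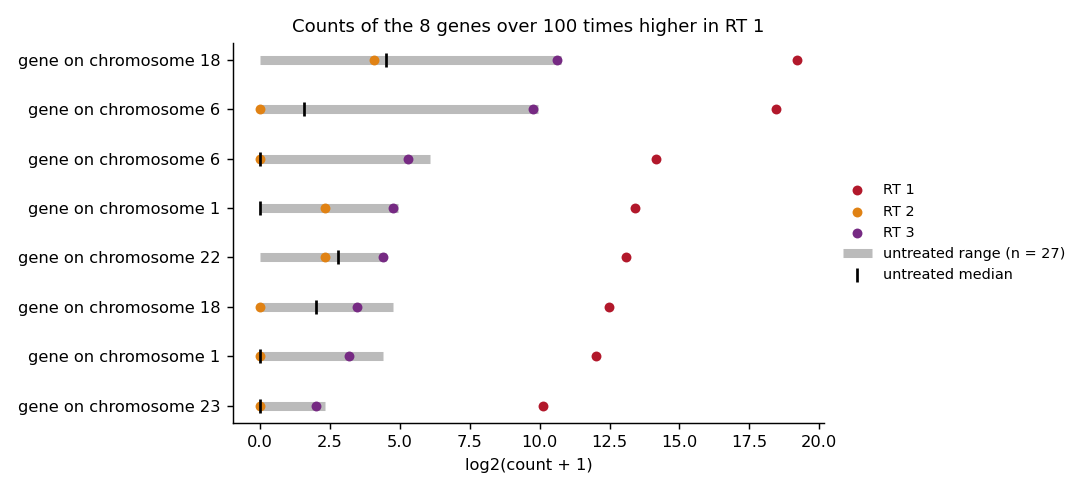
Log2 of the count plus 1 (horizontal axis) of the 8 genes with at least 1000 counts in RT 1 and at least 100 times the count of any other library, for each RT dog, with the untreated range (grey bars) and the untreated median (black ticks). RT 1 lies far to the right in each row, RT 3 lies near the upper part of the untreated range, and RT 2 lies at 0 to 16 counts.

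Of the 78 higher genes, 12 also averaged a log2 CPM of 1 or more and had a group median at least 0.5 above the untreated median, with all 3 RT dogs above that median. That average was taken over the 30 libraries, so high RT values count towards it. The 2 largest fold changes among these 12 are given here. ENSCAFG00000032054, on the minus strand of chromosome 18 from 45360028 to 45373325 in 31 exon blocks, had 5044 counts in RT 1, 6 in RT 2 and 34 in RT 3, against 0, 8 and 105 counts as the lowest, median and highest of untreated dogs. On the log2 CPM scale it stood at 10.21, 1.34 and 2.87 in RT 1, RT 2 and RT 3, against -1.16, 1.33 and 4.86 in untreated dogs. RT 1 lay above every untreated dog, RT 2 lay beside the untreated median, and 4 untreated dogs lay above RT 3. The log2 fold change was 6.73 (SE 0.78, edgeR adjusted p 1.51e-08). Without RT 1 it was 0.29 (edgeR adjusted p 0.993), and for RT 2 alone it was -0.83. The adjusted p over 49 alternatives ran from 8.47e-11 to 1, and the call was lost in 4 of them, which were without RT 1, RT 2 alone, RT 3 alone and limma voom.

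ENSCAFG00000009568, on the plus strand of chromosome 31 from 30091335 to 30100842 in 6 exon blocks, had 1026 counts in RT 1, 18 in RT 2 and 10 in RT 3, against 0, 4 and 241 counts in untreated dogs. Its log2 CPM was 7.91, 2.75 and 1.30 in RT 1, RT 2 and RT 3, against a lowest of -1.16, a median of 1.06 and a highest of 5.55 in untreated dogs. RT 1 lay above every untreated dog, while 3 untreated dogs lay above RT 2 and 11 above RT 3. The log2 fold change was 5.80 (SE 1.16, edgeR adjusted p 0.00304), and without RT 1 it was 1.50 (edgeR adjusted p 0.968). The call was lost in 7 of 49 alternatives, over which the adjusted p ran from 0.000307 to 1. In 3 of the 7, which changed the untreated dogs or fitted the RT and untreated libraries alone, the log2 fold change stayed between 5.49 and 5.72.

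The 2 lower genes had 0 counts in all 3 RT dogs. ENSCAFG00000045483, on the plus strand of chromosome 5 from 76279221 to 76285312 in 5 exon blocks, had 0, 0 and 0 counts in RT 1, RT 2 and RT 3, against 0, 10 and 22 counts as the lowest, median and highest of untreated dogs. Some counts were present in 26 of the 27 untreated dogs and in 30 of the 32 dogs of the other 4 treatment groups. Both reads of a pair were counted, so the 3 fragments that a count of 0 over the whole RT group allows stand for up to 6 counts (0.495 CPM). Set against that limit, which covers counting error only, the untreated level of 2.55 CPM makes the gene at least 5.16-fold lower in RT tumours. The fitted log2 fold change of -6.60 (SE 1.37, edgeR adjusted p 0.00538) depends on a prior count and is no bound. With 2 dogs left after RT 1 was taken out, the call was lost (edgeR adjusted p 0.225) although both had 0 counts. Over 49 alternatives the adjusted p ran from 0.00262 to 1, and the call was lost in 5, which were without RT 1, each RT dog alone and against untreated dogs with a survival label of at least 1.

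No other lower gene met the naming rule with a call. The gene with the smallest p that met the rest of the rule was ENSCAFG00000009317, on the plus strand of chromosome 33 from 7075752 to 7140982 in 7 exon blocks, with 4, 2 and 5 counts in RT 1, RT 2 and RT 3, against 2, 23 and 59 counts in untreated dogs. Its log2 CPM was 0.47, 0.19 and 0.54 in the RT dogs, against -0.02, 2.50 and 3.92 as the lowest, median and highest of untreated dogs. The 3 RT dogs lay close together, and 25 of 27 untreated dogs lay above each of them. The log2 fold change was -3.06 (SE 0.80, edgeR adjusted p 0.0634), which did not pass. It passed in 4 of 49 alternatives, among them DESeq2 (-3.05, DESeq2 adjusted p 0.0138). The other passes were with no filter on low counts (edgeR adjusted p 0.0453) and without untreated replicate 1 (0.0474) or 8 (0.0436). Over the 49 alternatives the log2 fold change ran from -3.39 to -2.75, and without RT 1 the edgeR adjusted p was 0.620. Beside the 7 untreated dogs numbered 18, with log2 CPM from 1.60 to 3.83, RT 3 was lower, and beside the 3 numbered 15, at 2.45 to 3.45, RT 2 was lower. The 1 untreated dog numbered 11 stood at -0.02, below RT 1.

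**Figure D4:**
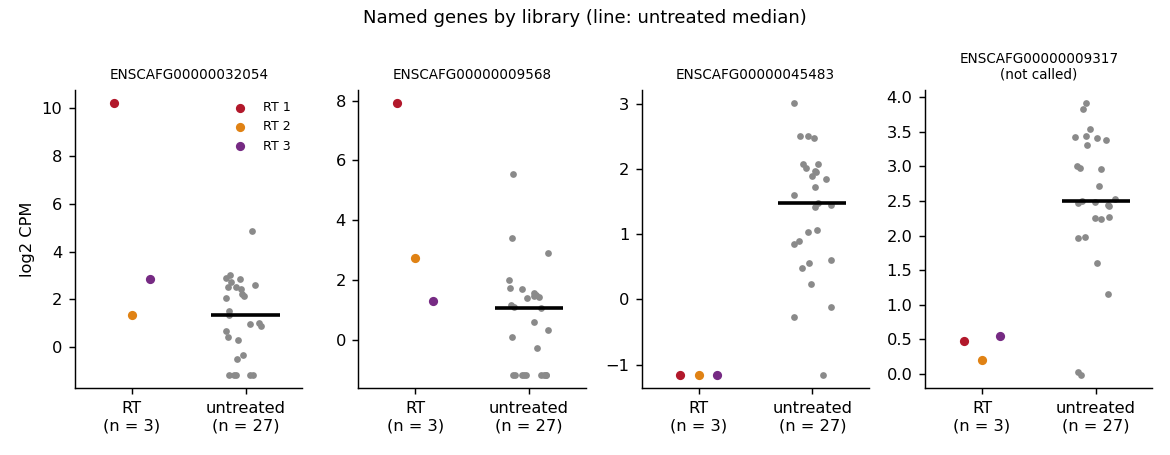
Log2 CPM (vertical axes) of the 4 named genes in each RT dog (coloured points) and in the 27 untreated dogs (grey points, with a line at their median). RT 1 stands alone at the top of the first 2 panels, the 3 RT dogs lie at the level of 0 counts in the third, and they lie within 0.19 to 0.54 in the fourth.

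Few genes separated the 2 groups without overlap. All 3 RT dogs lay above all 27 untreated dogs in 3 genes and below all of them in 4, which is 0.0163% and 0.0218% of the genes tested. None of these 7 genes was called by edgeR (smallest adjusted p 0.187), and by the same measure none of the 80 called genes separated the groups.

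The annotation in the file gave groups of genes that need no names. Of the 37 genes of the mitochondrial chromosome 16 were tested, and 0 were called, against 0.435% of all genes in either direction. Their median log2 fold change was 0.29 with all 3 dogs and -0.37 without RT 1. The median distance of these 16 genes from the untreated median was 1.50 in RT 1, -0.89 in RT 2 and 0.69 in RT 3, against -1.76 to 2.98 over untreated dogs, so the RT dogs fell on both sides. On the X chromosome 0 of 711 tested genes were called, with a median log2 fold change of -0.10. Of 1539 genes with a single exon block 1 was called higher, and of 16831 with several blocks 77 were called higher and 2 lower. Of 190 tested genes that span over 500000 bases 1 was called higher, and their median log2 fold change was 0.39 against -0.06 over all genes tested, and 0.67 without RT 1. The median distance of these long genes from the untreated median was -0.23 in RT 1, 0.92 in RT 2 and 1.29 in RT 3, against -0.86 to 1.24 in untreated dogs. RT 3 lay above every untreated dog in this measure and RT 2 above 25 of 27, while 8 of the 27 lay below RT 1. Over all genes tested the same measure also put RT 3 above every untreated dog, at 0.075 against a highest of 0.054. Among autosomes, median log2 fold changes ran from -0.19 to 0.20.

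Expression was also summed along chromosomes, as a score. For each chromosome it is the mean departure of its genes from their means over all libraries, from which the median of the 38 autosomes of that library is taken away. In tumours with gains or losses of whole chromosomes such scores can shift. RT tumours differed from untreated tumours in 0 of 39 scores (2-sided exact permutation test of means, smallest adjusted p 0.740, 2 at an unadjusted p under 0.05). The RT scores ran from -0.28 to 0.44 over all autosomes and dogs, against -0.90 to 0.61 in untreated tumours, which were more in number. The SD of the autosome scores was 0.115 in RT 1, 0.113 in RT 2 and 0.084 in RT 3. Untreated tumours had a median SD of 0.115, with a range from 0.070 to 0.324. None of the 3 RT tumours had an autosome below -0.3, which 12 of 27 untreated tumours had. Beyond either limit of 0.3 lay 1 autosome in RT 1, 1 in RT 2 and 0 in RT 3, against a median of 1 and a highest of 17 in untreated tumours, and 18 of the 27 had at most 1.

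Chromosomes 36 and 37 had the smallest p. On chromosome 36, with 103 genes, the scores were 0.31, 0.44 and 0.18 in RT 1, RT 2 and RT 3, against -0.90, 0.06 and 0.46 as the lowest, median and highest of untreated tumours. The means were 0.31 ± 0.13 (SD, n = 3) in RT and 0.04 ± 0.26 (SD, n = 27) in untreated tumours (exact permutation p 0.0379, adjusted p 0.740). On chromosome 37, with 147 genes, the scores were 0.19, 0.04 and 0.16 in the RT dogs, against -0.49, 0.01 and 0.19 in untreated tumours (exact permutation p 0.0261, adjusted p 0.740). In both cases the 3 RT scores lay inside the untreated range, and neither difference passed. Of the 117 RT scores 3 lay outside it, namely chromosome 24 in RT 1 at -0.28, chromosome 15 in RT 1 at 0.13 and chromosome 25 in RT 3 at 0.12.

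**Figure D5:**
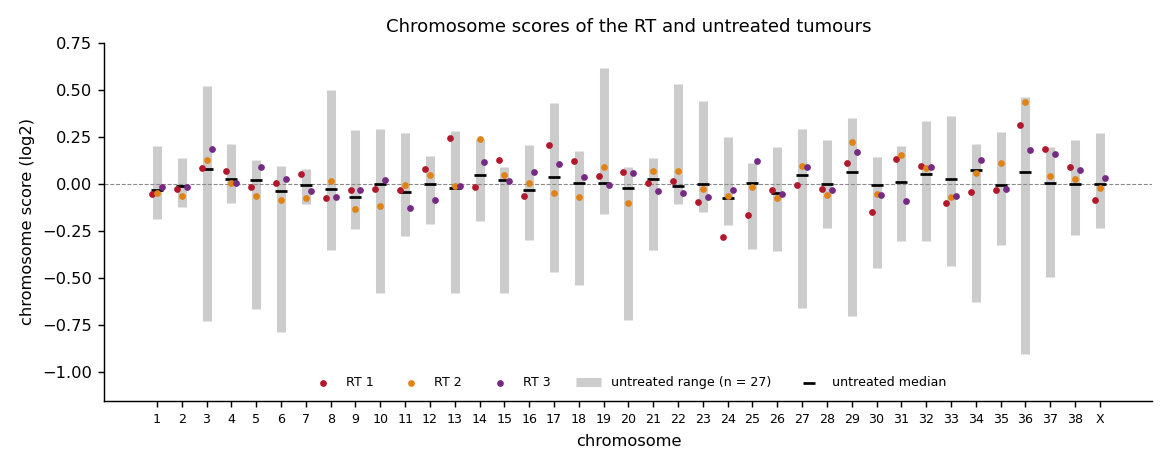
Chromosome score on the log2 scale (vertical axis) by chromosome for the 3 RT tumours (coloured points), with the range of the 27 untreated tumours (grey bars) and their median (black ticks). The RT points stay between -0.28 and 0.44, while untreated tumours, which are more in number, reach down to -0.90.

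The series holds another comparison with and without radiotherapy, in dogs that had surgery (9 with surgery and radiotherapy, SxRT, against 13 with surgery alone, Sx), which shares no library with RT against untreated. Names begin with N in 0 of the 9 SxRT and 1 of the 13 Sx libraries, and with S in the others. Survival labels ran from 156 to 1523 in SxRT and from 5 to 847 in Sx, so they overlapped, unlike between RT and untreated. Males numbered 4 in SxRT and 8 in Sx. Of the 78 genes higher in RT, 22 had a positive and 56 a negative log2 fold change in SxRT against Sx, while 45.5% of all genes tested were positive there. Their median in SxRT against Sx was -0.56, against -0.04 over all genes tested. Whether reads of RT 1 in Sx and SxRT libraries bear on this contrast was not tested. None of the 78 was called there by edgeR, and 10 had an unadjusted p under 0.05 (5.11% of all genes tested had), 3 of them higher in SxRT and 7 lower. The 2 genes called in SxRT against Sx (0.0109% of those tested) had log2 fold changes of 1.40 and 3.23 there, and of 0.26 (SE 0.38, edgeR adjusted p 0.940) and -0.73 (SE 0.82, edgeR adjusted p 0.908) in RT against untreated. The 2 lists of calls thus had no gene in common. The difference between both radiotherapy contrasts was itself tested in the edgeR fit, and it passed with a higher value in dogs without surgery for 32 genes (0.174%) and with a lower value for 1 (0.00544%). Of these, 28 and 1 were among the 78 and 2 called genes. The tested difference contains the RT against untreated contrast that chose the 78 and 2, so this overlap is no separate evidence. Without RT 1 the difference passed for 0 genes, with 958 at an unadjusted p under 0.05.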

How the data were processed

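Total RNA of 62 canine meningiomas was sequenced by the authors as 150 nt pairs, with 1 library per tumour, per the labels' protocols. The deposited values are unnormalised counts. Per the file headers, exonic reads were assigned to genes of Ensembl release 100 (CanFam3.1) by featureCounts 2.0.4. That run kept primary alignments, ignored strand and counted each read of a pair. STAR, DESeq2 and canFam3 are named in the submitters' processing notes, with versions not given in the sources used here. The members, the gene groups and the tests were chosen with earlier results of these data known. Lists of genes by name were not analysed, because no identifier had a name. P-values rest on the spread between libraries, over all 62 in the main gene test and over the 30 compared in the permutation tests. The closest of 1891 library pairs had a chi-square of 11.8 for each gene compared, far above sampling noise, and all libraries were kept as separate samples.

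The filter on low counts was filterByExpr with the treatment groups, and scaling was by TMM (0.556 to 1.24). All 62 libraries entered 1 edgeR 4.0.16 quasi-likelihood fit (R 4.3.3) with 6 treatment groups, sex and neuter status. The groups share 1 estimate of the spread for each gene. The common dispersion, a single value over genes, was 0.627. The SE is the log2 fold change divided by the root of F. Log2 CPM used a prior count of 2, so that 0 counts read -1.16. The naming rule required an edgeR call, an average log2 CPM over the 30 libraries of 1 or more, group medians 0.5 or more apart, and all 3 RT dogs on 1 side of the untreated median. The 2 largest changes per direction were taken, and a free place went to the smallest p. Chromosome scores used genes averaging a log2 CPM of 2 or more, and low counts were those up to 20. Alternatives used DESeq2 1.42.0 and limma 3.58.1 and changed the scaling, filter, tool, covariates and libraries. Further computation used scipy 1.17.1 and pandas 2.3.3 under Python 3.11.15. The gene test was tested on simulated data in which all 3 RT libraries carried the same change. Those data do not cover calls carried by 1 dog.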

Additional observations from a re-analysis of the deposited data

Results flagged for a closer look

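The difference with radiotherapy was compared between dogs without surgery (RT less untreated) and dogs with surgery (SxRT less Sx) by a test of the difference itself in the edgeR fit. That test passed for 33 genes, 32 with a higher and 1 with a lower value without surgery (0.18% of 18370, 1367 at an unadjusted p under 0.05), and 28 of the 32 and the 1 were among the genes called in RT against untreated. Without RT 1 it passed for 0 genes (edgeR, 958 at an unadjusted p under 0.05). ENSCAFG00000032054 had a difference of log2 fold changes of 7.56 (SE 1.22 and edgeR adjusted p 0.000290), from 6.73 in RT against untreated and -0.83 in SxRT against Sx. ENSCAFG00000045483 had one of -6.09 (SE 1.43 and edgeR adjusted p 0.0489), with 0 counts in 3 of 3 RT dogs and -0.50 in SxRT against Sx, and its size depends on a prior count. For ENSCAFG00000009568 (5.42, edgeR adjusted p 0.407) and ENSCAFG00000009317 (-3.10, edgeR adjusted p 0.177) the test did not pass. The called and named genes were chosen by RT against untreated, which is part of this difference. Neither the overlap nor the tests of the named genes are thus separate evidence. Names begin with N in all RT and untreated libraries, and with S in all but 1 of the SxRT and Sx libraries. Surgery can thus hardly be told apart from that letter in this test.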

How the results depend on the processing

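The counts of called genes moved with several choices, and in each case the cause was not tested. The 78 higher and 2 lower genes became 212 and 4 with no filter on low counts, 29 and 1 with genes averaging a log2 CPM of at least 1, and 22 and 1 with the RT and untreated libraries alone. They became 36 and 1 against untreated neutered males, 50 and 2 with the title number as a covariate, and 21 and 0 against untreated dogs with a survival label of at least 1. DESeq2 gave 30 and 26, and limma voom gave 18 and 4. RT 1 alone gave 287 and 221, RT 2 alone 42 and 6, and RT 3 alone 0 and 0. Leaving out each RT dog gave 8 to 156 higher and 0 to 40 lower genes, and 0 to 92 genes for the difference between radiotherapy contrasts, the lowest without RT 1 each time. Leaving out each untreated dog, an alternative added after seeing the data like the single dogs and the robust fit, gave 66 to 96 higher and 2 to 3 lower genes. Other scalings, no covariates, library covariates and no mitochondrial genes stayed within 1.5 times for the higher genes. So did the robust fit and counts divided by 2 and rounded up.

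ENSCAFG00000032054 turned to -0.83 with RT 2 alone. The 7 library measures did not pass under any alternative run. The first component kept its direction, and the other 6 measures changed theirs under at least 1 alternative. As RT less untreated means, leaving out each RT dog gave -243546 to 1406460 total counts, -875.1 to 884.9 genes with a count, -1.11 to 5.91 points of mitochondrial share, -0.655 to 2.47 points of even values, -0.158 to 0.0825 in TMM factor and -11.7 to 32.3 in the second component. Against untreated neutered males genes with a count differed by 487 and even values by -0.376 points. The 39 chromosome scores gave 0 calls under each of the 6 alternatives run. No paired analysis was possible because the labels give no replicate numbers, so the numbers used here tie no RT dog to an untreated dog. With counts divided by 2 and rounded up, 80 higher and 2 lower genes were called.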

Other observations

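Counts of the 8 genes that were over 100 times higher in RT 1 than elsewhere were also present in other libraries. The gene on chromosome 18 had over 100 counts in 14 of the other 61 libraries, from 384 to 1736, and at most 94 in the other 47. The 14 were RT 3, 5 untreated libraries and 8 libraries of other groups. The latter were replicate 7 of the steroid group, Sx replicates 1, 3, 4, 6 and 8, and SxRT replicates 1 and 9. In the 14 libraries the count of the gene on chromosome 6 was between 0.420 and 0.635 of that of the gene on chromosome 18. In RT 1 it was 0.597. The median over the 8 genes of the count as a share of the RT 1 count ran from 0.0574% to 0.280% in these 14 libraries. For single genes it reached 0.527%, and in 8 of the 14 libraries at least 1 of the 8 genes had 0 counts, while in the other 6, RT 3 among them, all 8 genes were counted. Whether these reads came from RT 1 was not tested.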
